A study of Mus musculus with 16 samples.

Results

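Unexpanded conventional cells were T cells from mouse liver tumours at day 5 whose receptor was seen in 1 cell only. A member had a productive TRA and a productive TRB chain and did not join TRAV11 to TRAJ18, the alpha chain of invariant natural killer T (iNKT) cells. No other cell of its library carried the same V segment, J segment and CDR3 nucleotides in both chains. These rules left 1197 of the 1852 paired cells of day 5, or of 2370 day 5 cells with any productive chain. Across both days the series held 5908 cells with a chain and 4787 paired cells. Members were thus chosen by 2 measured values, the number of cells per clonotype and the alpha chain segments. Clonotypes of 2 or more conventional cells, just outside the rule, held 20, 79, 13 and 9 cells in the 4 day 5 libraries.

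Hepa1-6, a line of mouse hepatoma cells, was injected into the liver (left lobe) of C57BL/6 animals, and cells infiltrating the tumours were captured in droplets for 5′ receptor sequencing. The control group (CON) had the genotype CD4creMatr3WT/WT and the other group (KO) CD4creMatr3fl/fl, so both carried Cre under the Cd4 promoter and only KO carried floxed alleles of Matr3, a gene for a nuclear RNA-binding protein. There were 2 libraries per genotype at day 5, and 2 per genotype at day 14 served for comparison. The labels leave unsaid whether the libraries came from separate mice. A p-value here speaks at most of differences between libraries, which may be technical. The p-values for segment use rest largely on counts of cells. The animals' age is not used here. The level of Matr3 could not be checked, since the tables hold receptor chains only, and the chains cannot separate CD4 from CD8 cells.

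CON library 1 gave 295 members, CON library 2 gave 371, KO library 1 gave 279 and KO library 2 gave 252, which was 65.3%, 61.0%, 67.1% and 67.02% of their paired cells. CON library 2 stood apart: it held 742 cells against 474 to 598 in the others, 15674 productive UMIs against 7683 to 9592, and 23 expanded conventional clonotypes against 4 to 6. The 6 pairs of day 5 libraries shared 2 barcodes in all, and no member had its paired nucleotide clonotype in another library. No productive gamma or delta chain and no immunoglobulin contig was found at day 5. The libraries are labelled TCRseq, and whether they would capture such chains was not tested, so this does not exclude such cells. Members with TRAV1 joined to TRAJ33, the alpha chain of mucosal-associated invariant T cells, numbered 3. Each member is described by its TRA chain of highest UMI count, and 10 members carried TRAV11 joined to TRAJ18 as another TRA chain (1, 4, 1 and 4 by library).

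Each T cell builds its receptor in the thymus by cutting and joining gene segments. The beta chain comes first, from V, D and J segments, and the alpha chain follows from V and J segments, with bases trimmed and added at each joint. The TRA locus can recombine again on the same chromosome, each time using a V farther out and a J farther in, until a receptor is accepted or the cell dies. A cell that has not divided after meeting antigen leaves a clonotype of a single cell, so such cells show the repertoire before expansion, as far as the depth of sampling allows.

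The CDR3 is the loop at the V to J joint that touches the antigen. The nucleotides below are printed because they show what the joint adds: capitals mark bases that matched neither the germline end of the V nor that of the J segment, which for TRB include any D bases. The germline ends came from the deposited chains themselves, built base by base from the most frequent next base among each segment's matching CDR3s. The V end of TRBV16 rested on 193 distinct chains, and the J start of TRBJ1-1 on 425.
TRBV16, germline V end: tgtgcaagcagcttaga
TRBJ1-1, germline J start: caaacacagaagtcttcttt
Only 2 TRB amino acid clonotypes occurred in more than 1 day 5 library, and both joined CON library 2 to KO library 2. Neither had the same nucleotides in both libraries.
TRBV16 with TRBJ1-1, CON library 2: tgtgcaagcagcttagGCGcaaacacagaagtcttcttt
TRBV16 with TRBJ1-1, KO library 2: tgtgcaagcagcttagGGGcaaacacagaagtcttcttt
TRBV13-1 with TRBJ2-5, CON library 2: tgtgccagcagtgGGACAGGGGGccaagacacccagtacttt
TRBV13-1 with TRBJ2-5, KO library 2: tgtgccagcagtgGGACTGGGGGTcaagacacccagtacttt
The next 2 show the range of the TRB joint, from no inserted base to 26, the most among members.
TRBV12-1 with TRBJ2-5, CON library 1: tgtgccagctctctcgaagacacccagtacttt
TRBV16 with TRBJ2-7, KO library 2: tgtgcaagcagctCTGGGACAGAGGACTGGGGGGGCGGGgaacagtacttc
Alpha chains were shared more often, with 12 amino acid clonotypes in 2 libraries each. The first pair below had no inserted base and was identical in both libraries, and the next 3 encode 1 shared loop by 3 nucleotide forms.
TRAV14D-1 with TRAJ22, CON library 1 and KO library 1: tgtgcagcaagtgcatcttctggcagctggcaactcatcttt
TRAV12D-3 with TRAJ23, CON library 1: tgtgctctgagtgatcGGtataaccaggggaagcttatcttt
TRAV12D-3 with TRAJ23, KO library 1: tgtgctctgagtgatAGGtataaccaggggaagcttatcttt
TRAV12D-3 with TRAJ23, KO library 1: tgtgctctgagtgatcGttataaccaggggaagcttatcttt

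Shared alpha chains had short joints. The 25 members whose TRA amino acid clonotype occurred in another day 5 library had a mean of 1.48 inserted bases, against 3.13 in the 1148 other members with a value. Of the shared ones 44.0% had no inserted base, against 11.9% of the others, and 6 of the 12 shared clonotypes had the same nucleotides in both libraries. The 4 members with a shared TRB chain had a mean of 6.75 inserted bases, against 9.83 in the others. These are descriptions of few cells and were not tested. Within the expanded conventional clonotypes of day 14, which numbered 256 by TRB, 3 day 5 members had their TRB amino acid clonotype, and 1 of 261 TRA clonotypes there was found in 1 member.

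TRA use followed the order of the locus in part. The TRAV segments seen span 1448.8 kb of mouse chromosome 14 (52427967 to 53876752, GRCm38), followed after a gap of 280.5 kb by the TRAJ segments, which span 60.6 kb. TRAV copies of the duplicated part of the locus (names with D or N) were merged for segment counts, which turned 87 deposited names into 47, while positions use the deposited names. A near-identical copy can be assigned to the wrong place, so each V position carries that uncertainty. The span was divided into 3 sections of 482.9 kb, called J-distal, middle and J-proximal, and the TRAJ segments into TRAJ40 to TRAJ58 (nearest the V side), TRAJ21 to TRAJ39 and TRAJ2 to TRAJ20.

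**Figure D1:**
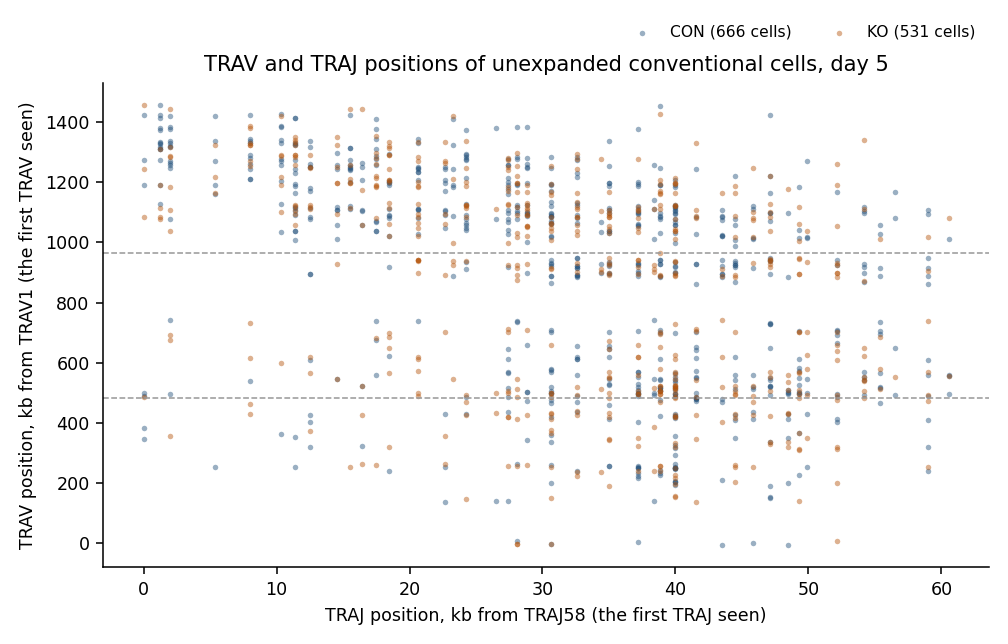
Position of the TRAV (y axis, kb from TRAV1) against that of the TRAJ (x axis, kb from TRAJ58) for each of the 1197 cells, in blue for CON and orange for KO. Dashed lines divide the TRAV span into 3 sections, and points were shifted slightly at random on the y axis. The lower left, where a distant V would join a J near the V side, holds few cells.

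V segments near the J side joined the first J segments far more often than those of the middle and J-distal sections, which differed little in this. The order did not continue outward for the last J segments: TRAJ2 to TRAJ20 was used less with a J-distal than with a middle V, except in KO library 2. Of the 577 cells with a J-proximal V, 42.1% used TRAJ40 to TRAJ58, 46.1% TRAJ21 to TRAJ39 and 11.8% TRAJ2 to TRAJ20. By library the first of these shares was 42.3% and 43.2% in CON and 41.6% and 40.7% in KO. Among the 425 cells with a middle V, 9.88% used TRAJ40 to TRAJ58, 53.9% TRAJ21 to TRAJ39 and 36.2% TRAJ2 to TRAJ20. Among the 195 with a J-distal V the shares were 10.3%, 60.5% and 29.2%. The first of these varied most, from 0 in KO library 2 to 19.1% in KO library 1. Seen from the J side, 79.7% of the 305 chains with TRAJ40 to TRAJ58 carried a J-proximal V.

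Across the 1197 cells the Spearman correlation of V and J position was -0.467. It was -0.523 and -0.485 in the CON libraries and -0.409 and -0.440 in the KO libraries. The cells of a library share its depth and mice, so this is a description. It was -0.462 over the 1044 unexpanded conventional cells of day 14, and -0.633 over the 91 day 5 cells whose TRAV name has 1 copy in the locus.

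The J-proximal share was lower for J segments farther from the V side. All 19 cells with TRAJ57 had a J-proximal V, as did 94.7% of 19 with TRAJ45 and 93.9% of 33 with TRAJ49. For TRAJ31 the share was 41.5% of 65 cells, for TRAJ22 31.6% of 95 and for TRAJ13 10.5% of 19. The median distance from V to J was 415 kb for TRAJ57 and 1224 kb for TRAJ22. TRAJ58, the outermost J, had a J-proximal V in only 54.5% of its 11 cells.

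**Figure D2:**
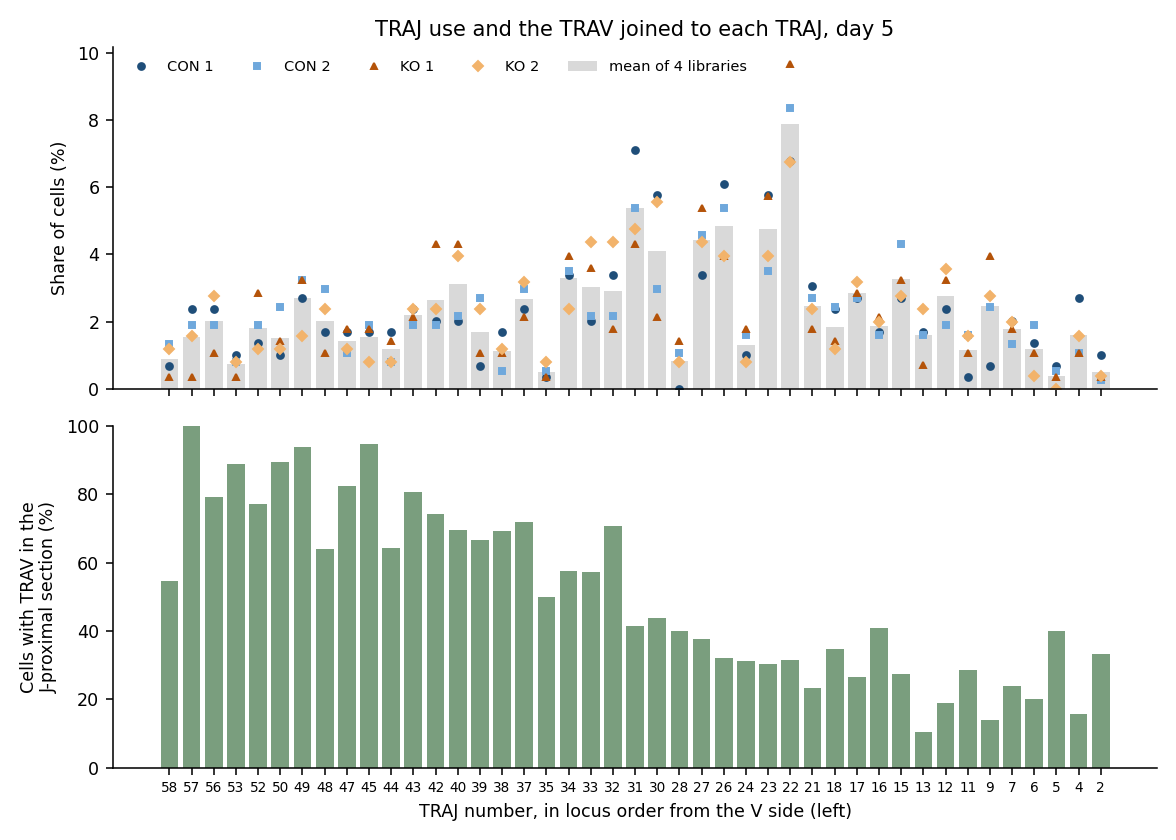
Upper panel, share of unexpanded conventional cells with each TRAJ (y axis, %), as the mean of 4 libraries (bars) and each library (points), in locus order from the V side. Lower panel, share of the cells with each TRAJ whose TRAV lay in the J-proximal section, which was 100% at TRAJ57 and 10.5% at TRAJ13.

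The middle of the TRAJ array was used most. TRAJ21 to TRAJ39 held 51.3% ± 1.36 of members, TRAJ40 to TRAJ58 25.4% ± 1.11 and TRAJ2 to TRAJ20 23.3% ± 0.657 (SD, n = 4). TRAJ22 (chromosome 14, 54197248 to 54197307) was the most used J, with 6.78% and 8.36% in CON and 9.68% and 6.75% in KO. TRAJ31 followed with 5.39% ± 1.23, then TRAJ26 with 4.85% ± 1.07, TRAJ23 with 4.74% ± 1.18 and TRAJ27 with 4.43% ± 0.817. The ranges of the first 2 overlapped, since TRAJ31 had 7.12% in CON library 1. The least used J among those tested was TRAJ5, at 0.394% ± 0.293.

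TRAV use was spread thinly over 47 merged names. TRAV6-6 led with 4.75% and 6.47% in CON and 6.09% and 3.17% in KO. TRAV14-3 had 5.03% ± 0.576, TRAV16 5.02% ± 1.59, TRAV13-1 4.97% ± 1.40 and TRAV12-2 4.84% ± 0.841 (SD, n = 4). The differences between these 5 means were smaller than the spread between libraries. Each of them sums 2 or 3 copies: TRAV16 counts 19 cells with TRAV16, 13 with TRAV16D-DV11 and 29 with TRAV16N. TRAV6-4 was the least used of those tested, at 0.947% ± 0.524.

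A second alpha chain was common and sat close to the first. Because the second TRA allele is not silenced as TRB is, a T cell can carry 2 productive alpha chains, and 124 members (10.4%) did. The share was 11.2% and 9.70% in CON and 8.24% and 12.7% in KO. The J positions of the 2 chains of a cell had a Spearman correlation of 0.632 (0.686 in the 114 cells whose other chain was not iNKT-type), and the V positions one of 0.344. The median gap between the 2 J segments was 7.02 kb. No cell combined TRAJ40 to TRAJ58 on 1 chain with TRAJ2 to TRAJ20 on the other, although 25 first chains used the former and 37 the latter. The first chain had a median of 6 UMIs and the other 3, so a second chain can escape detection at this depth. Of the 10 members whose other chain was iNKT-type, 6 used the joint TRBV12-2+TRBV13-2 name, 2 TRBV29, 1 TRBV13-1 and 1 TRBV10.

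TRBV use was broad, and no deposited name reached a share of 10% on average. Among deposited names TRBV3 (chromosome 6, 41048394 to 41048824) led with 7.80% and 8.09% in CON and 8.96% and 8.73% in KO. The deposited name TRBV12-2+TRBV13-2, which joins a pair of segments, had 8.15% ± 1.21, TRBV19 7.08% ± 0.595, TRBV5 7.06% ± 2.97 and TRBV1 6.64% ± 0.626 (SD, n = 4). TRBV5 varied most of these, from 3.97% in KO library 2 to 11.1% in KO library 1. The germline end of the joint name was the same as that of TRBV13-2 and not that of TRBV12-2, as the next 3 lines show, and TRBV13-2 and the joint name together held 121 cells, or 9.96% ± 1.76, more than TRBV3.
TRBV12-2+TRBV13-2, germline V end: tgtgccagcggtgatgc
TRBV13-2, germline V end: tgtgccagcggtgatgc
TRBV12-2, germline V end: tgtgccagctctctcga
By place in the locus, TRBV1 to TRBV5 held 26.3% ± 2.98, the TRBV12 and TRBV13 cluster 32.3% ± 3.33, TRBV14 to TRBV19 22.8% ± 2.06 and TRBV20 to TRBV30, the group nearest the J side, 9.07% ± 0.576. TRBV31, which lies beyond the constant regions in inverted orientation and joins by inversion, was used by 5.42% and 4.58% of CON and 7.17% and 5.56% of KO cells. TRBV13-2 under its own name was at 1.82% ± 0.685, the least of the names tested, but it ranked first when the joint name was counted with it.

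TRBJ use was less even than TRBV use. TRBJ2-7 (chromosome 6, 41543810 to 41543856), the last J of the second cluster, was used by 21.4% and 23.2% of CON and 21.9% and 19.8% of KO cells. TRBJ2-5 had 11.65% ± 1.99, TRBJ2-1 11.50% ± 0.717, TRBJ1-1 9.89% ± 2.21 and TRBJ2-3 9.599% ± 0.853 (SD, n = 4). TRBJ1-6 was the least used, at 1.58% ± 0.808. The TRBJ2 cluster as a whole held 67.6% ± 1.41. The locus order was kept in the constant region: all 385 TRBJ1 cells with a called constant region had TRBC1 and all 808 such TRBJ2 cells had TRBC2. A D segment was called in 291 members (24.3%). Of the TRBJ1 cells among them, 92 had TRBD1 and 0 TRBD2, which lies downstream of TRBJ1 and cannot join it by deletion. Of the TRBJ2 cells, 110 had TRBD1 and 89 TRBD2.

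CDR3 loops were of narrow length and wide composition. The TRB loop had a mean of 13.9 residues (range 8 to 19), and 73.3% of loops had 13 to 15. The TRA loop had a mean of 13.6 (range 7 to 18), and 73.4% had 13 to 15. Library means for TRB were 13.94 and 13.79 in CON and 13.96 and 13.99 in KO. TRB joints held a mean of 9.82 inserted bases, D included, and TRA joints 3.098. A TRA joint with no inserted base was found in 148 cells (12.6% of those with a value), and such a TRB joint in 9 (0.753%). TRBJ1 cells had 8.73 inserted bases on average and TRBJ2 cells 10.3.

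Longer TRB loops were longer mostly at the joint. Loops of 11 residues had 5.0 inserted bases on average (41 cells), those of 14 had 9.82 (373 cells) and those of 17 had 16.25 (24 cells). The V part grew from 13.1 to 14.96 bases between those lengths and the J part from 14.9 to 19.8. Glycine, the smallest residue, made up 22.9% of residues in the middle of the TRB loop, aspartate 9.1% and alanine 7.8%, while cysteine, methionine and histidine were each under 1%. The mean Kyte-Doolittle hydropathy, a scale on which negative values are hydrophilic, was -1.17 and -1.07 in CON and -1.04 and -1.13 in KO.

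**Figure D3:**
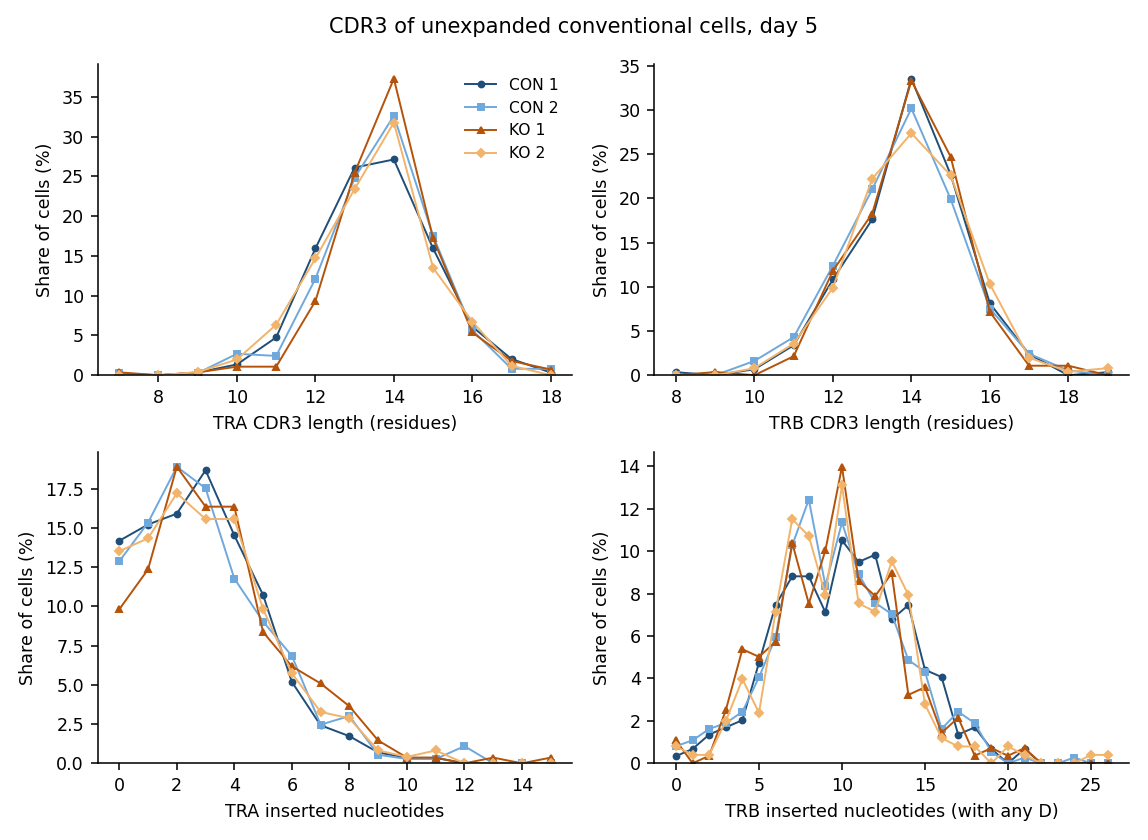
Distribution of CDR3 length (upper panels, residues) and inserted nucleotides (lower panels) for TRA (left) and TRB (right), as the share of cells of each day 5 library. The 4 libraries overlay each other, with peaks at 14 residues for both chains.

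TRB chains were caught by more UMIs than TRA chains. Median TRB UMIs per member were 9 and 13 in CON and 10 and 10 in KO, and median TRA UMIs 3 and 5 in CON and 3 and 4 in KO. In 83.4%, 87.9%, 85.7% and 81.7% of members by library the TRB chain had more UMIs. A TRA chain rested on 1 UMI in 13.9%, 9.97%, 11.5% and 9.13% of members, a TRB chain in 1.36%, 0.809%, 1.43% and 3.17%. Among TRBV segments, median TRB UMIs over all members were highest for TRBV17, at 15 and 23 in CON (5 and 17 cells) and 22.5 and 17 in KO (6 each). They were lowest for TRBV2, at 4 and 7 in CON (8 and 22 cells) and 4 and 3 in KO (11 each), so TRBV17 was above TRBV2 in each library. The part of these depths in the results below was tested only by leaving out chains of 1 UMI.

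Between genotypes at day 5 no segment passed the test. EdgeR (quasi-likelihood test, Benjamini-Hochberg adjustment over 102 segments) called 0 of them (0%), with 0.707 as the smallest adjusted p. Without adjustment 4 segments had p under 0.05 with edgeR, while with DESeq2 0 were called and 0 had an unadjusted p that low. The 2 KO libraries lay both above or both below the 2 CON libraries for 39 of 102 segments (38.2%), with 17 higher (16.7%) and 22 lower (21.6%). The segments nearest to the threshold are given here by value. TRAV17 had 2.03% and 1.62% in CON and 0.717% and 0 in KO, which gave a log2 fold change (± SE) of -2.13 ± 0.96. It was -1.28 without KO library 2, and without KO library 1 the KO group was at 0, where a fitted fold depends on the prior count. TRAJ40 had 2.03% and 2.16% in CON and 4.30% and 3.97% in KO (0.96 ± 0.37). TRAV14-1 had 2.37% and 2.70% in CON and 4.30% and 5.16% in KO (0.87 ± 0.36). These groups did not overlap, and neither did those of TRAV19 (-1.71), TRBJ1-1 (-0.51), TRAV9-4 (-1.04) and TRAJ33 (0.90). The CON and KO libraries overlapped for TRBV13-3 (0.71), at 3.39% and 5.93% in CON and 5.02% and 11.1% in KO. Its fold rested on KO library 2, without which it was 0.06, and it was 1.20 without KO library 1, 0.41 without CON library 1 and 1.21 without CON library 2.

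Of 17 repertoire measures, 6 (35.3%) did not overlap between genotypes. The mean distance from V to J was 870 and 894 kb in CON and 920 and 918 kb in KO, or 882 ± 17.2 against 919 ± 1.72 (SD, n = 2 each). The difference of 36.8 kb was 158 kb over the 91 cells whose TRAV name has 1 copy, with 953 and 1047 kb in CON (24 and 33 cells) and 1236 and 1081 kb in KO (17 each), and the exact permutation p was again 0.333. Those cells included TRAV17 (6 and 6 in CON, 2 and 0 in KO) and TRAV19 (4 and 9 in CON, 1 and 2 in KO). Both lie near the J side, so the 158 kb is not separate from the lower shares of these segments given above. Over all members the difference was 24.0 kb with chains of 2 or more UMIs and 24.7 to 49.0 kb without 1 library. The share of cells with a J-proximal V was 50.5% and 49.9% in CON and 44.8% and 46.8% in KO, and that with a J-distal V 14.2% and 16.2% in CON and 16.8% and 18.3% in KO. These 3 measures rest on the same V positions. The other 3 were the TRA inserted bases (2.90 and 3.04 in CON, 3.39 and 3.08 in KO), the TRB length given above, and the share of members with hydrophobic residues at both TRB positions 6 and 7, counted from the first residue of the loop (2.37% and 2.16% in CON, 1.08% and 1.59% in KO). Each gave p = 0.333 in the two-sided exact permutation test, the smallest that 2 against 2 libraries allow, and 0.944 after adjustment over the 17. None of them can be called a difference. At day 14 the same genotypes overlapped in V to J distance, at 916 and 868 kb in CON and 952 and 887 kb in KO, and in the J-proximal share.

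**Figure D4:**
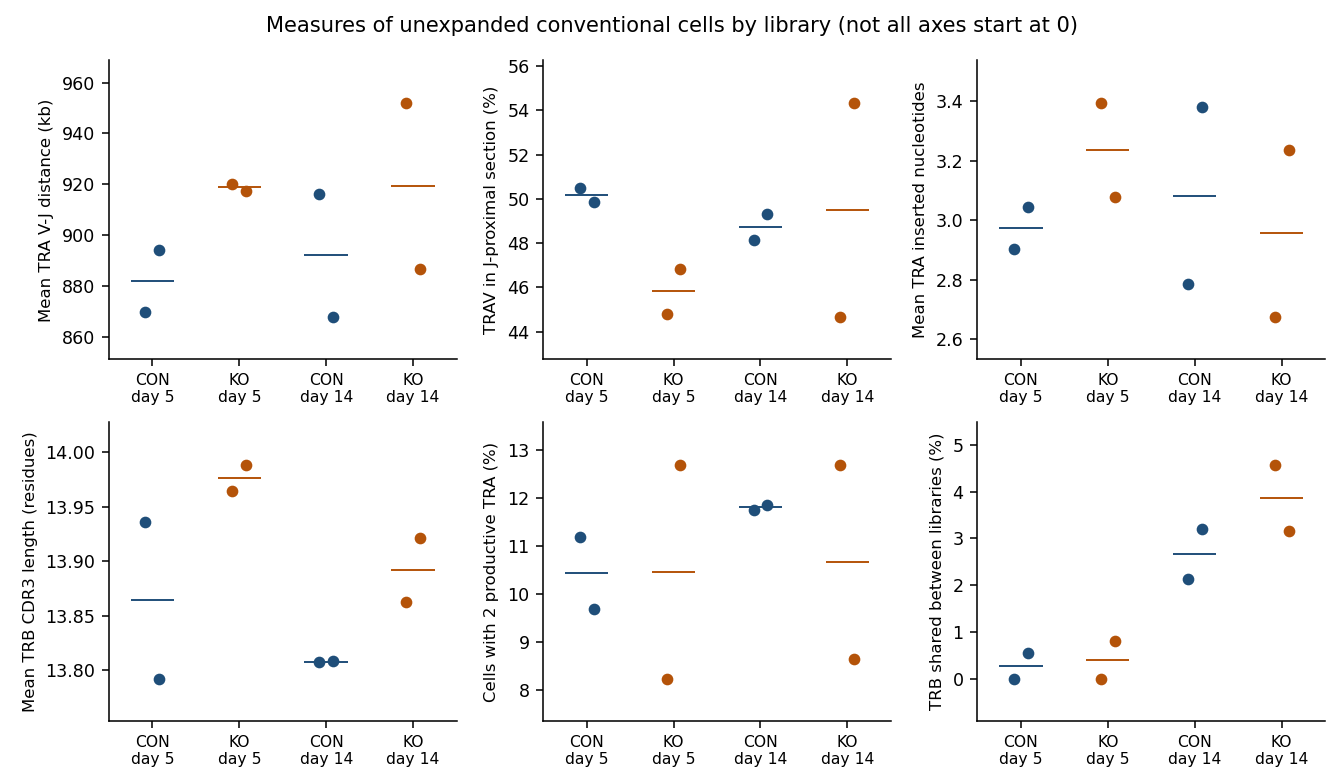
Measures of unexpanded conventional cells in each library (points, 2 per group) with the group mean (line), CON in blue and KO in orange. At day 5 the KO libraries lay above the CON libraries in V to J distance (918 and 920 against 870 and 894 kb), and at day 14 the genotypes overlapped.

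Against unexpanded conventional cells of day 14, which numbered 374, 219, 197 and 254 by library, 1 of 102 segments passed (0.98%). TRBV3 rose from 8.39% ± 0.543 to 14.0% ± 1.81 (SD, n = 4 each), with each day 14 library (14.2% and 16.4% in CON, 13.2% and 12.2% in KO) above each of day 5. On the log2 scale the fold change was 0.71 with an SE of 0.13, and the edgeR adjusted p was 0.0146. Without adjustment 10 segments had p under 0.05. DESeq2 did not call TRBV3 (adjusted p = 0.714), and in the 8 fits without 1 library the log2 fold change stayed between 0.67 and 0.78, but in 6 of them TRBV3 no longer passed, with edgeR adjusted p from 0.0554 to 0.113. Those were the fits without any 1 of the 4 day 5 libraries, without the day 14 CON library 2 or without the day 14 KO library 1. The next in order did not pass: TRAJ26 had 4.85% ± 1.07 at day 5 and 1.81% ± 1.36 at day 14, TRAV9-1 1.98% ± 0.354 and 4.397% ± 1.81, and TRBV31 5.68% ± 1.08 and 3.20% ± 1.16. TRAJ26 (log2 fold change -1.24) did pass without the day 14 CON library 1 (-1.95, edgeR adjusted p = 0.0129) or the day 14 KO library 2 (-2.01, 0.0381). TRAV9-1 (1.04) passed when only chains of 2 or more UMIs were counted (1.35, edgeR adjusted p = 0.0286), and was 0.34 without the KO libraries.

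TRB sharing between libraries was the only measure of 17 whose days did not overlap (5.88%). At day 5, 0% and 0.539% of CON and 0% and 0.794% of KO members had a TRB amino acid clonotype that occurred in another library of the day. At day 14 the shares were 2.14% and 3.20% in CON and 4.57% and 3.15% in KO. The means were 0.333% ± 0.399 and 3.26% ± 0.997, a difference of 2.93 points (exact permutation p = 0.0556, the least that 4 against 4 libraries permuted within genotype can give, with an adjusted value of 0.885). The day 14 cells formed 12 such clonotypes with 32 cells, and 19 of those cells had a TRB that was also in an expanded clonotype. Identical nucleotides were found for 5 of the 12, against 0 of the 2 at day 5. Over all 8 libraries and all paired cells, 4 paired nucleotide clonotypes occurred in more than 1 library. Carry-over between libraries was not tested. The other 16 measures overlapped between days, with TRB length at 13.92 ± 0.0877 and 13.85 ± 0.0542 residues and V to J distance at 900.3 ± 23.5 and 905.7 ± 36.7 kb.

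Conventional and iNKT-type cells of the same libraries differed in TRB use. The rule used TRB only to tell which cells shared a clonotype, and iNKT-type clonotypes of more than 1 cell were kept. EdgeR, with the library as a block and each iNKT-type clonotype counted once, called 21 of 32 TRBV and TRBJ segments (65.6%), 15 higher (46.9%) and 6 lower (18.8%) in conventional cells. With each conventional clonotype also counted once, expanded ones included, 20 were called (15 higher and 5 lower), an alternative chosen after seeing the data. The joint TRBV12-2+TRBV13-2 name was used by 9.15%, 9.16%, 7.53% and 6.75% of members by library and by 47.4%, 48.7%, 54.9% and 56.5% of iNKT-type clonotypes, with -2.63 ± 0.18 as the log2 fold change and its SE (edgeR adjusted p = 1.77e-24). TRBV29 (-1.67 ± 0.28) and TRBV13-1 (-1.24 ± 0.23) were lower too, as were TRBJ1-5 (-1.69), TRBJ1-2 (-1.05) and TRBV13-2 (-1.09, edgeR adjusted p = 0.0489). The fold of TRBV13-2 was much the same without 1 library (-1.24 to -0.91), although it no longer passed without CON library 1, CON library 2 or KO library 1 (edgeR adjusted p of 0.335, 0.0902 and 0.228) or with each conventional clonotype counted once (0.0523). With the joint name counted as TRBV13-2 its log2 fold change was -2.46 (edgeR adjusted p = 8.99e-24).

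The segments that were higher in conventional cells were mostly near 0 in iNKT-type cells. The filter of 20 or more counted both kinds together, and the 1197 members outnumbered the 526 iNKT-type clonotypes. TRBV16, TRBV12-1, TRBV12-2 and TRBV20 thus passed it through conventional cells alone. Each of the other segments called higher had from 1 (TRBV3) to 14 (TRBJ1-4) iNKT-type clonotypes. None of the 15 would therefore have passed on iNKT-type counts, and the numbers of higher and lower segments depend on the filter. With no filter on low counts edgeR called 20 of 34, 15 higher and 5 lower. TRBV16 was used by 77 members (6.43%) and by 0 of 526 iNKT-type clonotypes. With a floor of 3 counts over the 4 libraries (0.570%) in place of 0, the ratio was 11.3. On the same floor it was 9.23 for TRBV12-1, 7.47 for TRBV12-2 and 4.25 for TRBV20. These are rough lower bounds, which pool the libraries and leave out the error of the members' own shares. TRBV3 was used by 100 members (8.35%) and 1 iNKT-type clonotype (0.190%), a ratio of 43.9 (95% exact interval 7.71 to 1753, counting error only). TRBV19 and TRBV5 had log2 fold changes of 2.83 and 2.82, and TRBV31 one of 2.04, which was 2.79 without CON library 1 and 1.66 without CON library 2. TRBV1 (-0.16), TRBV13-3 (0.21) and TRBJ2-7 (0.13) did not pass.

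**Figure D5:**
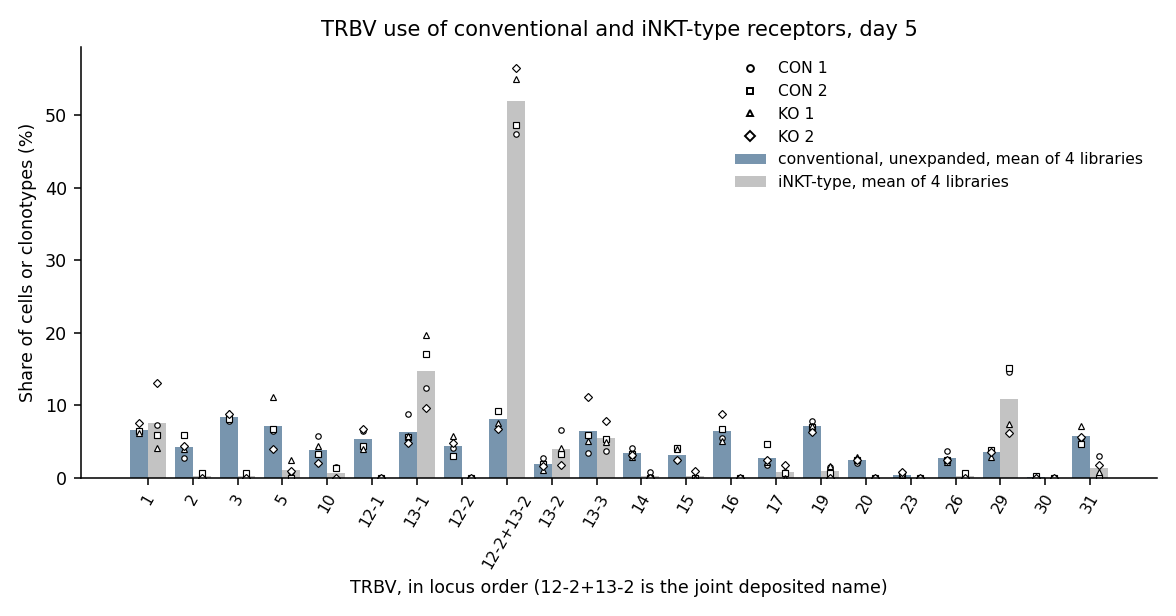
Share of unexpanded conventional cells (blue) and iNKT-type clonotypes (grey) with each TRBV in locus order, as the mean of 4 day 5 libraries (bars) and each library (points). The joint name holds 47.4% to 56.5% of iNKT-type clonotypes by library and under 10% of conventional cells in each.

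None of 6 TRB and UMI measures passed a test between the 2 kinds of cell. In all 4 libraries the middle of the TRB loop was less hydrophilic in conventional than in iNKT-type cells (mean hydropathy -1.10 ± 0.0578 against -1.35 ± 0.0987, SD, n = 4), TRBJ2 was used more (67.6% ± 1.41 against 60.7% ± 4.098) and fewer bases were inserted (9.82 ± 0.231 against 10.3 ± 0.322). Hydropathy is not separate from TRBV use. The germline V end of the joint TRBV12-2+TRBV13-2 name reads gat, for the hydrophilic aspartate, just past the 4 residues left out. That name held 51.5% of iNKT-type clonotypes and 8.27% of members, and its part in the hydropathy was not tested. For each of the 3 measures the exact permutation test over 16 sign flips gave p = 0.125, its smallest value, and 0.25 after adjustment over 6 measures. TRB length was 13.92 and 14.16 residues (exact permutation p = 0.25). Median TRA UMIs were 3.75 in both on average, and TRB UMIs 10.5 and 11.25.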

How the data were processed

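Receptor contigs were read from 8 droplet libraries of tumour-infiltrating cells, 4 of them from day 5. The submitters' processing notes name Cell Ranger 3.1.0, Seurat 4.0.0, CASAVA 1.8, R 4.1.2 and the build GRCm38. The deposited UMI and read counts per contig are whole numbers without normalization, per the file headers. From these, chains were taken as high-confidence productive contigs of barcodes that the authors called cells. The TRA and TRB chain with the most UMIs (ties by reads) stood for the cell. Possible doublets (2 or more productive TRB or 3 or more TRA chains), 1.69% to 5.02% of members by library, were kept except in an alternative.

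Segment positions came from RefSeq genes of GRCm38, which held 163 of 164 names. Germline CDR3 ends were built base by base from distinct chains. Each next base had to be held by at least 50% of the chains matching so far, with 10 or more left. The whole run can thus be held by a minority of a segment's chains and may reach past the true germline end, so inserted bases are estimates. Hydropathy left out 4 residues at either end of the loop. Segment use was tested on counts of cells in R 4.3.3 by edgeR 4.0.16 (its quasi-likelihood test, all 8 libraries, cell number as offset, 20 or more cells, adjusted p threshold 0.05), with DESeq2 1.42.0 as an alternative. The edgeR fit of all 8 libraries had a common dispersion of 9.77e-05, so it found little spread beyond that of counting cells. That value is the lower limit of the default search, so it does not measure the spread between libraries. Sign flips over the 4 day 5 libraries cannot give p below 0.125, so far smaller edgeR values rest on cell counts. The SE of a fold change was its absolute log2 value divided by the square root of the quasi-likelihood F statistic. Measures per library were compared by exact permutation. Segments named are the 5 most used and the least used tested of each kind, for each comparison at most 10 called segments per direction and otherwise the 8 with the smallest p. Members and lists were chosen with earlier results of these data known, so the iNKT-type and TRBV3 patterns are not independent support. Alternatives changed UMI minimum, doublets, clonotype rule, joint name, TRAV copies, scaling, filter, tool, block and libraries. The RNA libraries were not analysed here.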

Additional observations from a re-analysis of the deposited data

How the results depend on the processing

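Without 1 library at a time, and with no genotype measure past a test, these KO minus CON differences at day 5 changed sign: TRA length (range -0.114 to 0.201 residues), hydropathy (-0.0204 to 0.0829), TRAJ40 to TRAJ58 (-1.24 to 1.08 points), TRAJ21 to TRAJ39 (-1.80 to 0.947), TRAJ2 to TRAJ20 (-0.166 to 1.18), TRBJ2 (-2.05 to 0.891), 2 productive TRA (-2.20 to 2.25), TRA UMIs (-1.5 to 0.5), TRB UMIs (-3 to 1) and shared TRB (-0.142 to 0.524). For day 14 minus day 5 the ranges were -0.0648 to 0.0926 residues for TRA length, -0.235 to 0.0632 and -0.187 to 0.0139 for TRA and TRB inserted bases, -10.9 to 21.6 kb for V to J distance, -0.170 to 1.39 for TRAJ21 to TRAJ39, -0.686 to 2.503 for TRAJ2 to TRAJ20, -1.305 to 3.53 for J-proximal V and -0.325 to 1.903 for 2 productive TRA. Segment calls between days ranged from 0 to 2 (higher 0 to 1, lower 0 to 1).

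With chains of 2 or more UMIs the genotype difference was -0.0137 for TRA length and 0.233 for TRAJ40 to TRAJ58, and the day difference -0.310 for TRAJ2 to TRAJ20. Segment calls between days were then 2, both higher. TRAJ40 to TRAJ58 (main -0.0808) was 0.0711 without possible doublets, 0.0492 with TRB alone and 0.119 with the joint name as TRBV13-2. The share with 2 productive TRA (main 0.0261) was -0.284 without possible doublets, -0.000199 with the joint name as TRBV13-2 and -0.200 without cells whose other TRA chain was iNKT-type, an alternative chosen after seeing the data. Its day difference was -0.571 with TRB alone and -0.256 with the authors' clonotype ID. V to J distance between days was -32.5 kb over TRAV names with 1 copy. The day count of 1 (1 higher) was 0 (0 higher) with DESeq2, TRB alone, no doublets or no KO libraries. The causes were not tested.

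With the replicate number as a block edgeR called 0 segments between genotypes and 1 between days, so no call changed. The numbers pair the libraries by name only: the correlation of same-numbered deviations was 0.116 between CON and KO at day 5 and -0.0953 to 0.0435 between the other groups. Without the library block the iNKT-type comparison also gave 21 calls, and 18 to 21 without 1 library. With 2 libraries per genotype no exact test within day 5 can pass 0.05, and segments of few cells have wide errors.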
